A study of Mus musculus with 12 samples.

Results

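The genes described here are Wfdc17, Mapk12, Gm11346, Fcgrt, Kctd14, Mex3b, Dpm3 and Gpr146, 8 of the 18194 genes that the arrays measured. They were chosen by their readout: each stood among the 11 largest differences between follicular and marginal zone B cells of mice with intact Bcl6. Splenic B cells of 10-week-old C57BL/6 females were sorted into 6 groups of 2 Affymetrix arrays each, by cell type and Bcl6 genotype. All mice, controls included, carried 1 copy of the mb1-cre allele, which drives Cre recombinase from the Cd79a locus and so acts throughout the B lineage. The genotypes were mb1-cre(+/-)Bcl6(+/+) (WT), mb1-cre(+/-)Bcl6(+/flox) (HET) and mb1-cre(+/-)Bcl6(flox/flox) (HOM), with 0, 1 and 2 floxed Bcl6 alleles. Before sorting, magnetic depletion removed cells bearing T cell markers (CD3, CD5, CD90), myeloid markers (CD11b, Gr-1, F4/80), the erythroid marker TER119, or CD43, CD95 or CD138. The gate B220+AA4.1-CD21intCD23+ then gave follicular (FO) cells, and marginal zone (MZ) cells were taken as CD21highCD23low.

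Follicular B cells recirculate between blood and lymphoid follicles and give rise to most germinal centre responses. Marginal zone B cells stay at the border of the white pulp, respond quickly to blood-borne antigen, and depend on Notch2 signalling. BCL6 is a transcriptional repressor best known as the master regulator of the germinal centre B cell, and both sorted populations are naive cells that have not entered that program.

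Expression is given per probe set on the log2 scale after GCRMA, so 1 unit is a doubling. GCRMA gives a probe set without signal above its modelled background a low value that repeats across arrays, and the lowest value was 2.21 on the FO arrays and 2.22 on the MZ arrays. Levels are compared between groups for 1 gene at a time and never between genes, since probe sets differ in their response. Nothing in the labels tells whether the 2 arrays of each group stem from different mice, and the spread behind every p-value may therefore be technical. In sorted bulk RNA, fewer cells that express a gene and less RNA per cell cannot be told apart.

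Bcl6, the targeted gene, had 2 probe sets. On FO arrays 1 of them was 4.94 and 5.61 in WT, 4.93 and 4.86 in HET, and 2.36 and 2.48 in HOM, while on MZ arrays it was at 2.22 throughout and so checks no MZ genotype. The other was higher in HOM than in WT, at 12.70 and 12.88 against 11.95 and 11.65 in FO and at 9.95 and 10.37 against 8.29 and 8.81 in MZ. Where either lies relative to the floxed part was not analysed here. Markers of the sorted cell types followed the labels. The CD23 gene Fcer2a, whose product set the gate, was between 13.6 and 14.2 on the FO arrays and between 8.85 and 9.50 on the MZ arrays. Of the follicular list, 7 of 7 genes passed as higher in FO in HET and 5 of 7 in HOM, where 16.5% and 13.0% of all tested genes did. In both genotypes 11 of 12 marginal zone genes passed as lower in FO, where 1040 (HET) and 852 (HOM) of all 9307 tested genes did. The lists include Fcer2a and the CD21 gene Cr2, so these counts are not independent of the gate. The mean of 7 general B cell genes lay between 12.3 and 13.0 on every array. Correlations between the 2 arrays of a group ran from 0.975 to 0.984, except for MZ WT at 0.944. MZ WT replicate 1 stood apart, its Gapdh control probe sets differing by 6.90 between the 3' and 5' ends against -0.20 to 0.63 on the other arrays. The neutrophil genes S100a8 and S100a9 both exceeded 7 on 4 arrays, namely replicate 1 of FO HET, FO HOM, MZ WT and MZ HOM, and were at most 2.66 on the other 8.

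The values that chose the 8 genes were the WT differences, FO minus MZ, and they are given as a description without a test. Wfdc17 had a log2 difference of 6.05 and ranked 3 among the 18194 genes. Mapk12 followed at 5.76 (rank 4), Gm11346 at 5.24 (rank 5), Fcgrt at 5.05 (rank 6) and Kctd14 at 4.82 (rank 7). Mex3b was at 4.72 (rank 8), Dpm3 at 4.70 (rank 9) and Gpr146 at 4.67 (rank 11). Just outside stood Crip3 at 4.60 (rank 12), and between them Sdc1 at 4.69 (rank 10), which is not among the 8. Crisp3 at 6.62 and Trav9d-3 at 6.25 ranked above them, the latter resting on FO WT replicate 1, where it was 15.87 against 2.21 on replicate 2. Without MZ WT replicate 1, the 8 differences ran from 4.51 to 6.05.

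The 8 genes lie on 6 chromosomes: Dpm3 on 3, Gpr146 on 5, Fcgrt, Mex3b and Kctd14 on 7, Wfdc17 on 11, Gm11346 on 13 and Mapk12 on 15. RefSeq lists 7 as protein-coding and Gm11346 as a transcribed pseudogene. Promoter windows of 250 bases before the annotated start (RefSeq, build GRCm38.p6) were held for 6 of them, 8 windows in all because Gpr146 has 3 annotated starts. The 3 windows below are shown because they belong to the gene that rose in HOM follicular cells, the gene with the most negative HOM follicular difference, and the only window with a BCL6 and STAT core. Capitals mark matches on either strand to CACCTG (the E-box read by E2A), GAGGAA (a PU.1 core), CCACCC (read by KLF factors), TTCNNNGAA (the core shared by BCL6 and STAT factors), TTCCTNGAA (a stricter BCL6 core, contained in the previous motif) or GTGGGAA (read by RBPJ).
Wfdc17, chr11:83703806-83704055, plus strand: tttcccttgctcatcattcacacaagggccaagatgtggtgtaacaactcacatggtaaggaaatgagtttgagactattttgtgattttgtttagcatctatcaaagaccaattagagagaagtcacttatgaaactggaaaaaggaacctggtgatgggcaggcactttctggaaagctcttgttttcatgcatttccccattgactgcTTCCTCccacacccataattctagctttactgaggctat
Mapk12, chr15:89140704-89140953, minus strand: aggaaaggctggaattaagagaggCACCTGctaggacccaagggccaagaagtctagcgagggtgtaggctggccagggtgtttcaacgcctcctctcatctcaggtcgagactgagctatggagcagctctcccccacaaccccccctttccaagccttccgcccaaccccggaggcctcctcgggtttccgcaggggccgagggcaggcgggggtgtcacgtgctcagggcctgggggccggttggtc
Gpr146, chr5:139380389-139380638, plus strand: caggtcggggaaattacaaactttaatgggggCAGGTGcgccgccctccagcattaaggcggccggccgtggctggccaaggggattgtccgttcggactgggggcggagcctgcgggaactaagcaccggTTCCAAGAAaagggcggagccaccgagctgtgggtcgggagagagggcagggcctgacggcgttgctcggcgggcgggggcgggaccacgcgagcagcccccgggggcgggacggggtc
The Wfdc17 window held 1 PU.1 core, 39 bases before the start, and the Mapk12 window 1 E-box. The Gpr146 window held an E-box and the sequence TTCCAAGAA, the only match to the BCL6 and STAT core among the 8 windows. That core was in 7.02% of 32851 mouse promoter windows of the same length, and the stricter BCL6 core was in 1.31% of them and in 0 of the 8. E-boxes were in 4 of the 8 windows against 17.2% of all windows, PU.1 cores in 3 against 23.3%, KLF motifs in 2 against 28.1% and RBPJ motifs in 0 against 5.42%. These counts are by window and not by gene: the 3 Gpr146 windows held all of the KLF motifs and part of the E-boxes. These are matches of letters and describe the windows only.

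All 8 genes were higher in FO than in MZ cells in HET mice and in HOM mice, on arrays that the choice did not use. The differences ran from 3.92 to 6.53 in HET and from 3.53 to 7.79 in HOM, with medians of 4.85 and 4.77, against medians over all tested genes of 0.17 in both. In each genotype all 8 passed the test (limma, Benjamini-Hochberg over 9307 genes, fitted on the 8 arrays without WT). The background share of tested genes called higher in FO was 16.5% in HET and 13.0% in HOM. The 99th percentile of the difference over tested genes was 3.16 in HET and 2.66 in HOM, so each of the 8 differences lay above it. For all 8 genes, every FO array of any genotype lay above every MZ array, as it did for 17.0% of all tested genes. The filter on low values was met through FO alone for 6 of the 8, which were under 4 on every MZ array, so for those genes the direction of a large difference was set in advance by the filter and the choice. Gm11346 and Kctd14 were above 4 on all arrays. Where MZ arrays sat at the minimum or at a repeated value (Wfdc17, Mapk12 and Dpm3 on 5 of 6 arrays each, Mex3b and Gm11346 on 3), the size of the FO minus MZ difference, its error and its rank depend on the background correction and are no exact folds.

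**Figure D1:**
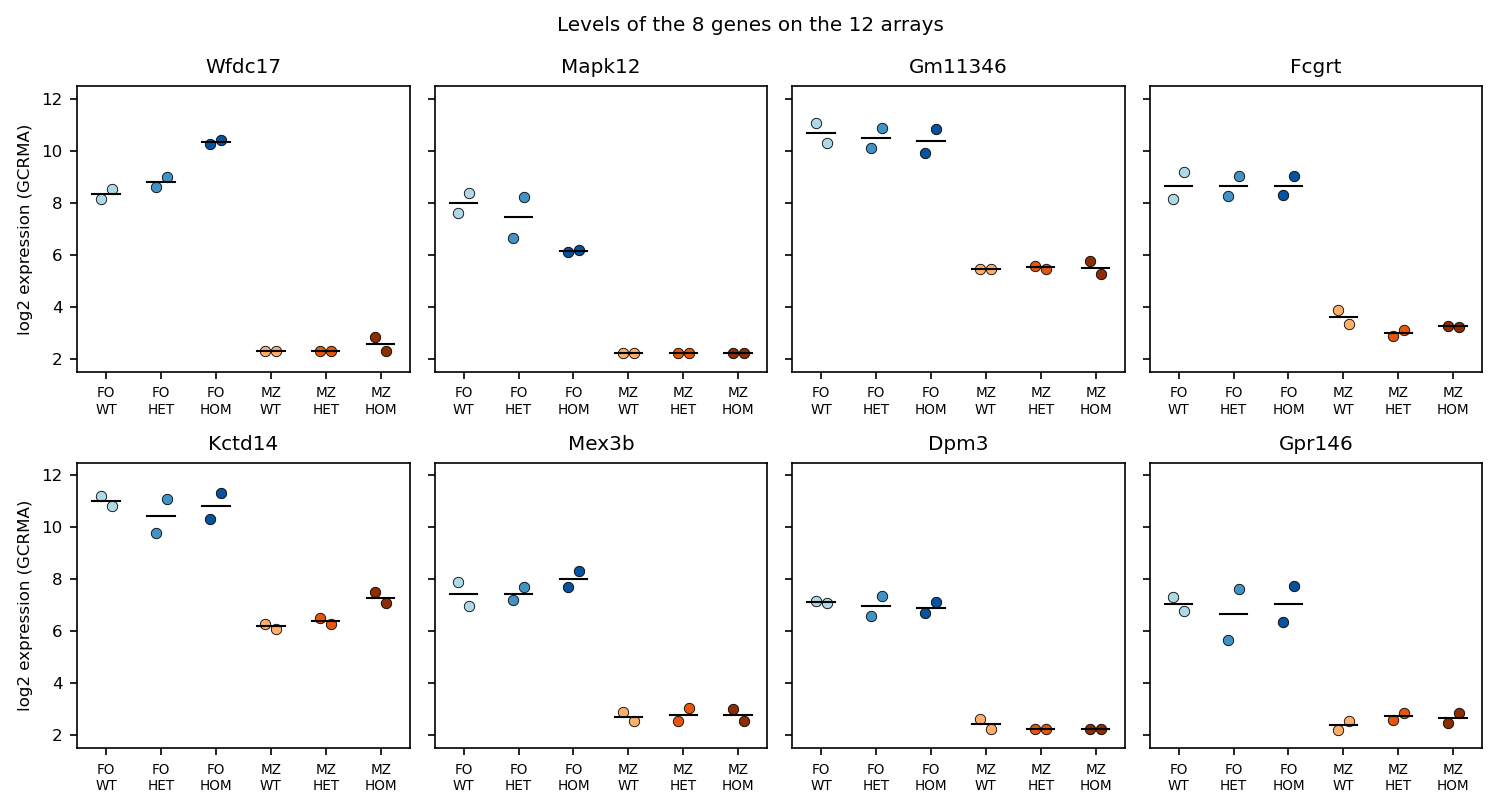
Log2 expression of the 8 genes (vertical axes) on each of the 12 arrays, by cell type and genotype (horizontal axes). Points are arrays and bars are means of 2 arrays. The FO and MZ arrays do not overlap in any panel; Wfdc17 is highest on the 2 FO HOM arrays and Mapk12 lowest, among FO arrays, on the same 2.

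Wfdc17 encodes a small secreted protein with a WAP domain, known from activated macrophages. On the FO arrays it was 8.14 and 8.53 in WT, 8.62 and 9.0 in HET, and 10.26 and 10.44 in HOM. On the MZ arrays it was 2.28 on 5 of 6 and 2.83 on HOM replicate 1. Both FO HOM arrays lay above all 4 other FO arrays, by 1.26 over the nearest, and the WT and HET arrays did not overlap but lay close. The FO minus MZ difference was 6.53 ± 0.23 (SE) in HET (limma adjusted p = 2.70e-05) and 7.79 ± 0.23 in HOM, both against the low value repeated on the MZ arrays.

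Since Wfdc17 is known from macrophages, the macrophage and monocyte list was read beside it. Of 15 genes, 14 were measured, and 6 of these were under 3 on every array, among them Cd14, C1qc and Vsig4. The mean of the list ran from 3.13 to 3.70 on the FO arrays and from 3.50 to 4.13 on the MZ arrays. Of its 7 tested genes, 1 passed as higher and 3 as lower in FO in HET, and 1 and 1 in HOM (limma). Over all 9307 tested genes, 1540 were called higher and 1040 lower in HET, and 1207 and 852 in HOM. The list medians of FO minus MZ were -0.39 in HET and -0.75 in HOM, against 0.17 over all tested genes in both. Adgre1, the F4/80 gene, was higher in FO, by 1.91 ± 0.48 in HET (limma adjusted p = 0.0306) and 2.47 ± 0.48 in HOM (limma adjusted p = 0.0143). It was 5.72 and 5.38 in FO WT, 5.71 and 4.64 in FO HET, and 6.41 and 5.71 in FO HOM. Csf1r, the receptor for macrophage colony-stimulating factor, was at most 3.45 on the FO arrays and at least 4.30 on the MZ arrays. Cd68 was 4.19 to 6.13 on FO arrays and 6.80 to 7.85 on MZ arrays. Between FO HOM and FO WT, 0 of 7 tested genes of the list passed (limma), where 0.430% of all tested genes did. The part of other cells in the level of Wfdc17 was not tested. Of the WAP domain list, 10 of 11 genes were measured and 2 tested, Wfdc17 and Wfdc21. Both passed as higher in FO, Wfdc21 by 2.16 ± 0.42 in HET and 1.81 ± 0.42 in HOM, where 16.5% and 13.0% of all tested genes did. That count includes Wfdc17, which was chosen for its WT difference.

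Fcgrt encodes the heavy chain of FcRn, the receptor that recycles IgG and albumin and pairs with beta-2 microglobulin. It was 8.13 and 9.19 on the FO WT arrays, 8.27 and 9.03 in HET, and 8.30 and 9.04 in HOM. On the MZ arrays it was 3.89 and 3.34 in WT, 2.87 and 3.11 in HET, and 3.28 and 3.24 in HOM. The 3 FO groups had nearly the same mean and overlapped. The FO minus MZ difference was 5.66 ± 0.33 in HET and 5.41 ± 0.33 in HOM, rank 8 and rank 5 of the tested genes. The gene for its partner, B2m, was between 14.9 and 15.2 on all 12 arrays. Of 16 genes on the Fc receptor list, 14 were measured and 10 tested: Fcgrt, Fcer2a and the IgM receptor gene Fcmr passed as higher in FO in each genotype, and Fcer1g as lower. The list medians were 0.12 in HET and 0.27 in HOM, against 0.17 over all tested genes. As a background, 16.5% of all tested genes in HET and 13.0% in HOM were called higher in FO. The list counts include the chosen gene Fcgrt and also Fcer2a, the gene of CD23, which set the gate.

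Gpr146 encodes an orphan G protein-coupled receptor. It was 7.33 and 6.77 on the FO WT arrays, 5.67 and 7.63 in HET, and 6.35 and 7.74 in HOM, and between 2.22 and 2.87 on the MZ arrays. It varied widely between the 2 arrays of a group, with an SD of 1.38 in FO HET and 0.98 in FO HOM. Its FO minus MZ difference of 3.92 ± 0.69 in HET was therefore the least certain of the 8 (limma adjusted p = 0.00882), and without MZ HET replicate 1 its adjusted p was 0.0646. In HOM it was 4.36 ± 0.69 (limma adjusted p = 0.00631). Another probe set of the gene gave 2.79 ± 0.40 in HET and 3.12 ± 0.40 in HOM, while 3 further ones were under 2.5 on every array, 1 of them shared with D830046C22Rik, which RefSeq gives as a synonym of Gpr146. Among 17 genes on the orphan receptor list, 13 were measured and 9 tested. In HET, Gpr146, Gpr174, Gpr183 and P2ry10 passed as higher in FO and Gpr34 as lower. In HOM, Gpr146, Gpr174 and Gpr132 passed as higher. Calls as higher in FO took in 16.5% of all tested genes in HET and 13.0% in HOM, and the list counts include the chosen gene Gpr146.

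Mapk12 encodes p38 gamma, a stress-activated MAP kinase. It was 7.60 and 8.37 on the FO WT arrays, 6.66 and 8.25 in HET, and 6.11 and 6.17 in HOM. All 6 MZ arrays lay between 2.22 and 2.23, at or next to the minimum. Both FO HOM arrays were below all other FO arrays, by 0.49 against the nearest HET array and 1.43 against the nearest WT array, while HET and WT overlapped. The FO minus MZ difference was 5.23 ± 0.46 in HET and 3.92 ± 0.46 in HOM, both against MZ arrays at the minimum. Its other probe set, an _x_at set that can bind related transcripts, was under 3.2 on every array and carries no information on these changes.

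The 3 other p38 genes did not share 1 pattern. Mapk11 (p38 beta) was 9.60 to 10.70 on the FO arrays and 4.89 to 6.29 on the MZ arrays, without overlap. Its difference was 5.29 ± 0.27 in HET and 4.44 ± 0.27 in HOM (limma adjusted p = 8.23e-05 and 0.000162). Mapk14 (p38 alpha) was 10.87 to 11.33 and 10.31 to 10.90, with differences of 0.54 ± 0.20 and 0.59 ± 0.20 that did not pass (limma adjusted p = 0.0963 and 0.0877). Mapk13 (p38 delta) was at most 2.31 on every array. Of 20 genes on the p38 pathway list, all were measured and 19 tested. In HET, 4 passed as higher in FO: Mapk11, Mapk12, the transcription factor gene Mef2c by 1.44 ± 0.13 and the kinase gene Rps6ka5 by 1.33 ± 0.28. In HOM the same 4 passed, with Mapkapk2, a kinase downstream of p38, by 1.02 ± 0.27. None passed as lower, and the list medians were 0.52 and 0.45, against 0.17 over all tested genes in both genotypes. The share of all tested genes called higher in FO was 16.5% in HET and 13.0% in HOM. Both list counts include Mapk12, which was chosen for its WT difference.

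**Figure D2:**
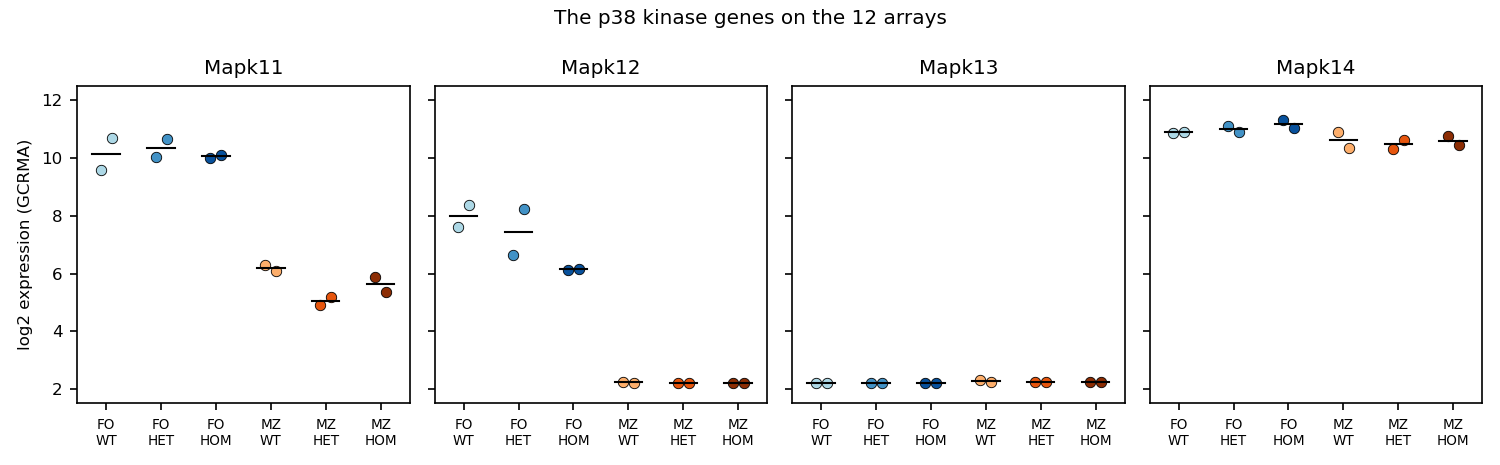
Log2 expression of the p38 kinase genes Mapk11, Mapk12, Mapk13 and Mapk14 (vertical axes) on each array by group (horizontal axes). Points are arrays and bars are means of 2. Mapk11 and Mapk12 are higher on all FO arrays than on any MZ array, Mapk13 is at most 2.31 throughout, and Mapk14 is above 10 in both cell types.

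Dpm3 encodes the small subunit that anchors dolichol-phosphate mannose synthase in the membrane of the endoplasmic reticulum, where the enzyme supplies mannose for glycosylation and GPI anchors. It was 7.17 and 7.10 on the FO WT arrays, 6.58 and 7.35 in HET, and 6.70 and 7.11 in HOM. On the MZ arrays it was 2.25 on 5 of 6 and 2.62 on WT replicate 1. The 3 FO groups overlapped. The difference was 4.72 ± 0.27 in HET and 4.66 ± 0.27 in HOM (limma adjusted p = 0.000113 and 0.000152). Neither of the other 2 subunit genes passed in HET or HOM. Dpm1 was 8.98 to 9.66 in FO and 9.05 to 9.51 in MZ, with overlap. Dpm2 was 9.61 to 10.01 in FO and 9.06 to 9.53 in MZ. It was thus higher in FO without overlap, as were Dpm3 and 17.0% of all tested genes, but by less than Dpm3. Of 15 genes on the pathway list, 13 were tested. Dpm3 and the mannosyltransferase gene Alg9 passed as higher in FO in both genotypes, Pigm in HET only and Dolk in HOM only. When the FO minus MZ difference was compared between HOM and HET, 0 of the 13 passed (limma), against 0.0215% of all tested genes. These counts include the chosen gene Dpm3, and 16.5% of all tested genes in HET and 13.0% in HOM were called higher in FO.

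Mex3b encodes an RNA-binding protein with KH domains and a RING finger. It was 7.88 and 6.97 on the FO WT arrays, 7.20 and 7.70 in HET, and 7.71 and 8.31 in HOM, and between 2.54 and 3.07 on the MZ arrays. FO HOM arrays were the highest by mean but overlapped those of WT. The difference was 4.65 ± 0.32 in HET and 5.23 ± 0.32 in HOM. Within its family of 4 genes, 3 were tested, and Mex3c passed as higher in FO in HET by 0.92 ± 0.18 and Mex3d in HOM by 1.20 ± 0.24. Of all tested genes, 16.5% in HET and 13.0% in HOM were called higher in FO.

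Kctd14 encodes a protein of the potassium channel tetramerisation domain family. It was 11.19 and 10.83 on the FO WT arrays, 9.78 and 11.11 in HET, and 10.33 and 11.34 in HOM. On the MZ arrays it was 6.28 and 6.10 in WT, 6.53 and 6.29 in HET, and 7.52 and 7.08 in HOM, with both HOM arrays above the other 4. It had the smallest gap between the cell types among the 8 genes, 2.27 between the lowest FO and the highest MZ array. The difference was 4.04 ± 0.50 in HET and 3.53 ± 0.50 in HOM, rank 41 and rank 43. These values come from an _x_at set, which can bind related transcripts. All 4 probe sets of the gene had the FO arrays above the MZ arrays, with differences of 3.27 to 5.49 in HET. Of 22 family genes, 18 were measured and 11 tested: Kctd14 and Kctd10 passed as higher in FO in each genotype, Kctd10 by 1.23 ± 0.24 in HET, and Kctd7 as lower by 1.40. Among all tested genes 16.5% in HET and 13.0% in HOM were called higher in FO, and the family count includes the chosen gene Kctd14.

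Gm11346 is a transcribed pseudogene, so its probe set may also take up RNA of a related gene, which was not tested. It was 11.08 and 10.32 on the FO WT arrays, 10.11 and 10.90 in HET, and 9.91 and 10.86 in HOM. On the MZ arrays it was between 5.27 and 5.75, with the value 5.46 repeated on 3 of them. The FO groups overlapped. The difference was 4.98 ± 0.39 in HET and 4.88 ± 0.39 in HOM.

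**Figure D3:**
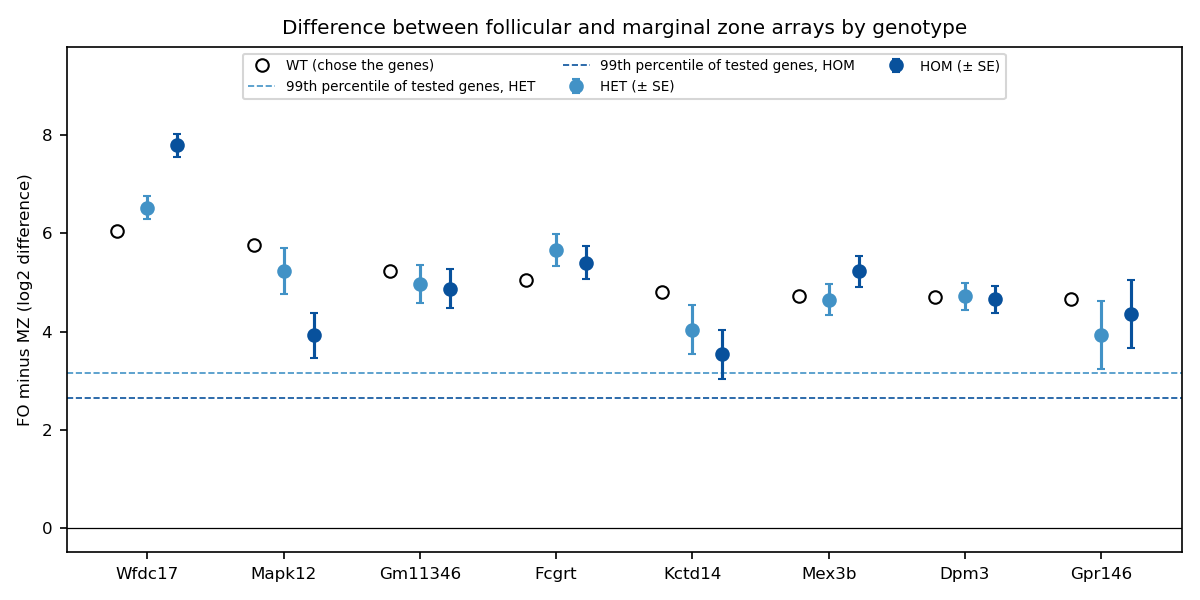
Log2 difference FO minus MZ (vertical axis) for the 8 genes (horizontal axis) in WT (open circles, the values that chose the genes, no error shown), HET and HOM (filled circles, ± SE from limma). Dashed lines are the 99th percentiles over 9307 tested genes, 3.16 in HET and 2.66 in HOM, and all 8 genes lie above them.

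Between FO HOM and FO WT, 1 of the 8 genes passed the test. Wfdc17 was 10.35 ± 0.13 (SD, n = 2) in FO HOM against 8.33 ± 0.28 in FO WT, a difference of 2.02 ± 0.23 (SE) or 4.05-fold (limma adjusted p = 0.0110). This SE rests on a residual SD shared by all 6 groups, the MZ groups included. On MZ arrays Wfdc17 was at its repeated low value in WT and HET (SD 0 each) and had an SD of 0.39 in HOM. The spread behind this p-value is therefore not that of the FO arrays alone. Over all tested genes 0.430% were called in this comparison, 35 higher and 5 lower. The WT arrays also entered the choice of the genes, so a fall from WT in FO or a rise from WT in MZ is not independent of it, while this rise in FO runs against that direction. HOM also exceeded HET, with both arrays higher, by 1.54 ± 0.23, but this did not pass (limma adjusted p = 0.172). HET exceeded WT by 0.48 ± 0.23 without passing (limma adjusted p = 1). The call on HOM against WT was lost without FO WT replicate 1 (difference 1.82, adjusted p = 0.0904), FO HOM replicate 1 (2.11, 0.0928) or FO HOM replicate 2 (1.93, 0.0935). With the difference kept at 2.02, it was also lost with no filter on low values (adjusted p = 0.0583), with the 6 FO arrays alone (0.122) and with the 4 arrays compared (0.392). Without the 4 arrays with neutrophil genes, FO HOM replicate 1 among them, the difference was 2.11 and the adjusted p 0.300. The part of neutrophil RNA in this difference was not tested.

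In MZ cells Wfdc17 stayed at its low value, and HOM minus WT was 0.27 ± 0.23. The FO minus MZ difference was larger in HOM than in HET by 1.27 ± 0.32, which did not pass (limma adjusted p = 0.997). In that comparison 0 of the 8 genes passed, against 0.0215% of all tested genes, and 1 had an unadjusted p under 0.05 (limma), as did 3.40% of all. Averaged over both cell types, HOM minus WT was 1.15 ± 0.16 for Wfdc17 (limma adjusted p = 0.0271), 1 of 8 genes called against a background of 0.462%. This average was carried by FO cells. Its call was lost without any of 9 single arrays of the 12 (adjusted p from 0.0533 to 0.120).

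Mapk12 was 6.14 ± 0.04 in FO HOM, 7.45 ± 1.12 in FO HET and 7.99 ± 0.55 in FO WT (SD, n = 2 each). HOM minus WT was -1.85 ± 0.45 (limma adjusted p = 0.206) and HOM minus HET was -1.31 ± 0.46 (limma adjusted p = 0.980), so neither passed. The WT arrays entered the choice of the gene, so in every fit a fall from WT in FO is not independent of it. The errors also share their residual SD with MZ arrays at or next to the minimum (SD 0.01 in WT, 0 in HET and 0 in HOM). The FO HET arrays, at 6.66 and 8.25, were the farthest apart. With either of them left out, HOM minus WT kept its value at a limma adjusted p of 0.0387. HOM minus HET was -2.11 without replicate 1 (adjusted p = 0.0456) and -0.52 without replicate 2 (adjusted p = 0.994). In MZ cells the gene was at its minimum in all genotypes, where no fall can be seen.

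The other 6 genes showed no genotype difference past the threshold in FO cells. Differences of HOM from WT were -0.31 ± 0.39 for Gm11346, 0.00 ± 0.41 for Fcgrt, -0.18 ± 0.45 for Kctd14, 0.58 ± 0.37 for Mex3b, -0.23 ± 0.26 for Dpm3 and -0.01 ± 0.63 for Gpr146. The 95% intervals of these differences, unadjusted, were narrowest for Dpm3 (-0.83 to 0.37) and widest for Gpr146 (-1.44 to 1.42). They use a residual SD shared with the MZ arrays. Dpm3 had an SD of 0 in MZ HET and in MZ HOM, at its repeated low value, against 0.55 in FO HET. Its interval is therefore not a measure of FO arrays alone. Such intervals do not give the size of change that would pass after adjustment. For Mapk12, HOM minus WT in FO had an all-negative interval (-2.87 to -0.82) and did not pass (limma adjusted p = 0.206). This fall from WT is not independent of the choice of the gene. The smallest change that would pass was not tested. Between HOM and HET in FO, 0 of the 8 passed (limma), against 0.0752% of all tested genes, and 2 had an unadjusted p under 0.05, as did 4.01% of all. Between HET and WT in FO, 0 of the 8 passed and 0 had an unadjusted p under 0.05, and the background was 0%, with 184 genes (1.98%) at an unadjusted p under 0.05.

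In MZ cells, Kctd14 was the gene with the largest genotype difference. Its mean was 7.30 ± 0.31 in HOM, 6.41 ± 0.16 in HET and 6.19 ± 0.13 in WT (SD, n = 2 each), and both HOM arrays were above the other 4. HOM minus WT was 1.11 ± 0.45 (limma adjusted p = 0.801) and HOM minus HET 0.89 ± 0.50 (adjusted p = 0.725), so neither passed. The WT arrays entered the choice of the gene, so a rise from WT in MZ is not independent of it. Its 4 probe sets, which share a transcript and are not replicates, all had positive MZ HOM minus WT differences, from 1.07 to 1.87, and each had an adjusted p of 0.875 when all 16699 probe sets were fitted. Across the 8 genes in MZ, HOM minus WT gave 0 calls (limma) against a background of 0.0645%, and 1 gene had an unadjusted p under 0.05, as did 6.08% of all tested genes. HOM minus HET gave 0 calls against 0.0322%, and HET minus WT gave 0 calls against 0.0107%. At an unadjusted p under 0.05 both gave 0 of the 8, against 7.57% and 3.08% of all tested genes.

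**Figure D4:**
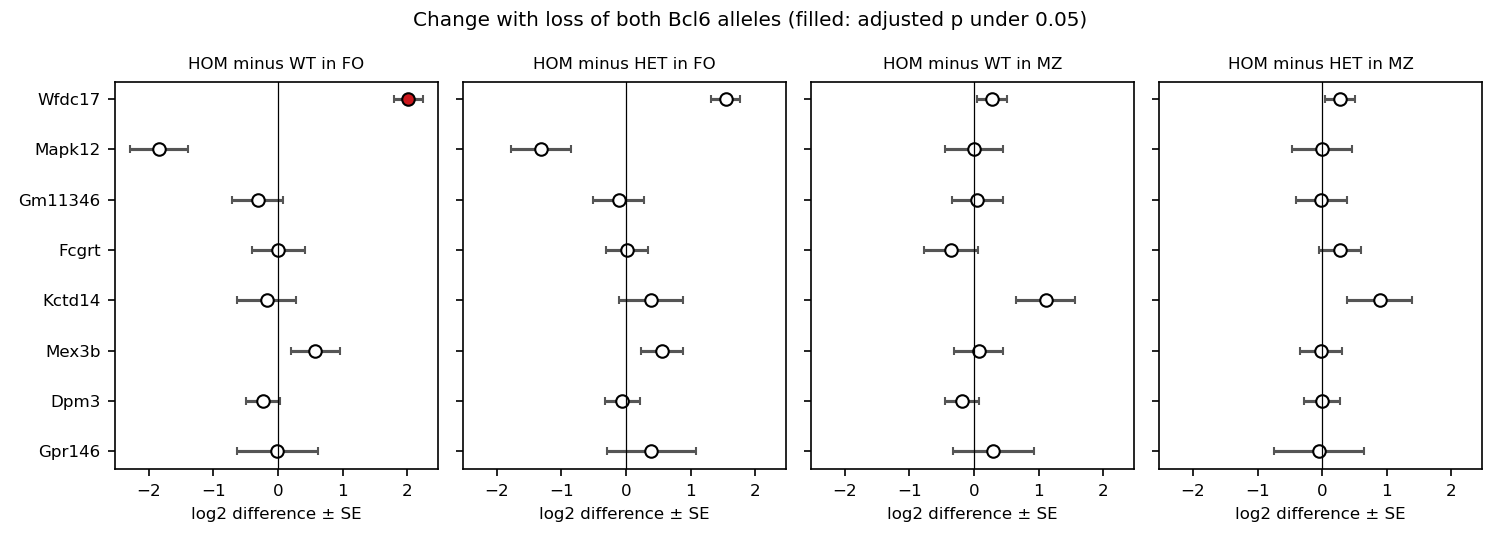
Log2 difference of HOM from WT or HET (horizontal axes, ± SE from limma) for the 8 genes (vertical axis), in FO (left 2 panels) and MZ cells (right 2 panels). The filled point, Wfdc17 in FO against WT at 2.02, is the only one past an adjusted p of 0.05; Mapk12 is lowest in FO, at -1.85 and -1.31, and Kctd14 highest in MZ, at 1.11 and 0.89.

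**Figure D5:**
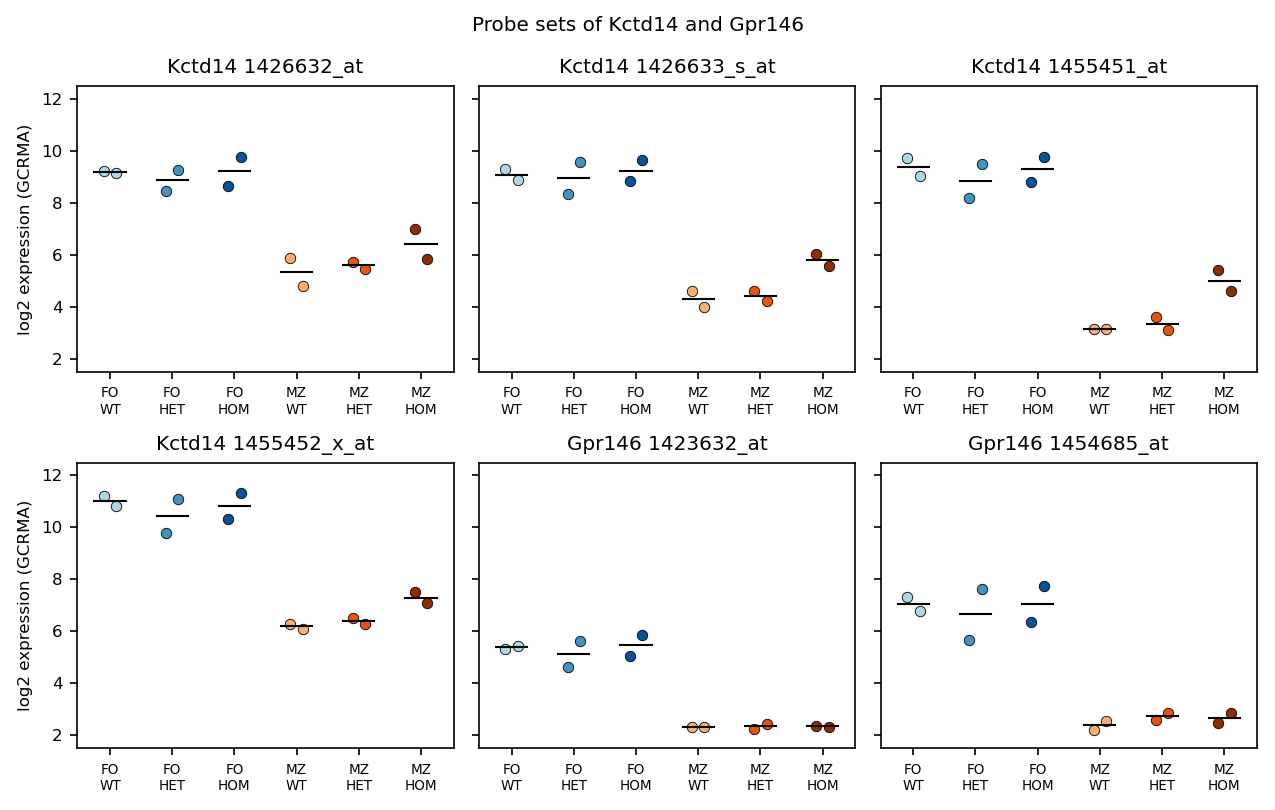
Log2 expression (vertical axes) of the 4 probe sets of Kctd14 and the 2 probe sets of Gpr146 with signal, on each array by group (horizontal axes). Points are arrays and bars are means of 2. FO arrays lie above MZ arrays in every panel, and the MZ HOM means exceed the MZ WT and HET means for each Kctd14 probe set.

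The 2 arrays of a follicular group differed in a direction that the 8 genes shared. In FO HET all 8 were lower on replicate 1, by a median of 0.78, and in FO HOM all 8 were lower on replicate 1, by a median of 0.67. Among all tested genes 57.7% and 50.6% were lower there. In FO WT, 3 were lower on replicate 1 and 5 higher. The mean of 14 immediate early genes, which rise quickly on stimulation or handling and were listed after these values were seen, was 11.18 and 10.08 in FO HET, 11.39 and 10.36 in FO HOM, and 8.99 and 11.31 in FO WT. Gm11346, Kctd14, Mex3b, Dpm3 and Gpr146 were lower on the array with the higher immediate early mean in all 3 pairs, 5 of 8 genes, as were 19.9% of all tested genes. The MZ pairs did not run that way: on the array with the higher immediate early mean, 5 of the 8 were higher and 1 lower in MZ WT and in MZ HOM, and 3 were higher and 2 lower in MZ HET. Kctd14, above 4 on all arrays on the probe set that represents it, was there higher by 0.18 in MZ WT and 0.43 in MZ HOM and differed by -0.23 in MZ HET. The mean of 9 measured neutrophil genes was 3.89 and 2.29 in FO HET, 5.04 and 2.29 in FO HOM, and 2.28 on both FO WT arrays. The part of either gene group in the members' values was not tested.

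Across the 6 FO arrays, which share their normalization and 3 genotypes, the genes fell into no single pattern. Kctd14 and Gpr146 had a Pearson correlation of 0.98, Kctd14 and Dpm3 of 0.91, Dpm3 and Gpr146 of 0.91 and Gm11346 and Gpr146 of 0.86. Wfdc17 and Mapk12, the 2 genes with the largest HOM minus WT differences, had one of -0.73. Over all 12 arrays, where the 2 cell types dominate any correlation, the profiles most like the mean of the 8 were those of Ackr1 (0.997), Slc2a6 (0.997), Rom1 (0.996), Cgas (0.995) and Crip3 (0.995). The closest single gene to Wfdc17 was Col27a1 (0.996), to Mapk12 Gadd45g (0.994), to Kctd14 Pafah1b3 (0.989) and to Fcgrt Slc2a6 (0.995).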

How the data were processed

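TRIZOL-extracted RNA of 12 sorted B cell samples was labelled by 3' in vitro transcription, per the labels. The authors deposited log2 values from GCRMA, as the submitters' processing notes state (its version is not given in the sources used here). The lowest value was 2.21262 on FO and 2.21924 on MZ arrays, so the cell types may have been normalized in 2 runs. Such runs and the cell type cannot be told apart. Where a probe set sat at a repeated low value in both cell types (20789 probe sets), the FO minus MZ shift of that value had a median of -0.0066 and ran from -3.57 to 2.92, with its 1st and 99th percentiles at -0.51 and 0.49.

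A gene was represented by the probe set with the highest mean among those with 1 gene symbol in the platform annotation (34958 of 45101). Genes at 4 or more on at least 2 arrays, 9307 of 18194, were tested with limma 3.58.1 (lmFit, eBayes) in R 4.3.3, two-sided, with Benjamini-Hochberg adjustment and a threshold of 0.05. Comparisons without WT were fitted on the 8 HET and HOM arrays (4 residual degrees of freedom), and those with WT on all 12 (6). The number of arrays limits the precision. The fits were tested on simulated data. Named genes were the 8 members, the 12 largest WT differences, genes of family and marker lists that were called or had the smallest p, and the most correlated genes; single other list genes (Mapk13, Mapk14, Dpm1, Dpm2, B2m, Csf1r, Cd68, Cd14, C1qc, Vsig4, S100a8, S100a9) were named after their values were seen. Members and lists were chosen with earlier results of these data known. Promoter sequences are from RefSeq.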

Additional observations from a re-analysis of the deposited data

How the results depend on the processing

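For the 8 genes in the 10 comparisons, 1760 values were computed under alternatives: 1624 kept their sign and their side of the threshold, 37 lost and 3 gained the call, and 96 uncalled values had another sign or were 0 on 1 side. In HET and HOM, the count of 8 called FO minus MZ differences held under all these settings except without MZ HET replicate 1 and 1 setting added later (7 in HET, range 7 to 8; in HOM 8 throughout). Chosen after seeing the data, that fit, without the 4 arrays that carried neutrophil genes, called 0 of 8 in each, but it left 1 residual degree of freedom and called 0 of all 9307 genes; all 8 had an unadjusted p under 0.05 (limma), with differences of 4.70 to 6.72 in HET and 3.95 to 8.16 in HOM. The count for HOM minus WT in FO, 1, was 0 with no filter (Wfdc17 adjusted p = 0.0583), with the FO arrays alone (0.122), with the 4 arrays compared (0.392) and without the neutrophil arrays (0.300, difference 2.11), and ranged from 0 to 2 leaving out single arrays, the second call being Mapk12 without either FO HET array. Over both cell types, 1 became 0 with no filter (0.0879), the probe set with the highest SD (0.0635), array weights (0.0560) and without the neutrophil arrays (0.511), and ranged from 0 to 1 leaving out single arrays. HOM minus HET in FO ranged from 0 to 1 in the same way. The cause was not tested. Without the filter, 9381 of 18194 genes passed FO minus MZ in HET. Values at the 2 minima then enter as differences, and their part in these calls was not counted. Same-numbered arrays did not deviate together in every pair (correlations from -0.26 to 0.77), so the numbers were not taken as pairs. The correlation was 0.77 for FO HET and HOM, 0.68 for FO and MZ HOM and 0.58 for MZ WT and HOM. In these pairs both replicate 1 arrays carried neutrophil genes, and the remaining pairs were between -0.26 and 0.12. The cause of the shared deviation was not tested. With the replicate block, 8 and 8 of the 8 genes were called for FO minus MZ in HET and HOM, as without it. For HOM minus WT in FO 1 was called, also as without it, while calls over all genes went from 40 to 61. Only the arrays compared could not be fitted for the comparison of differences or the average, nor the arrays of 1 cell type for the average.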
